A study of Mus musculus with 11 samples.

Results

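The genes described here are 43 genes of DNA replication and of entry into S phase, out of 24490 genes counted in primary mouse ovarian granulosa cells. They were chosen by gene symbol, from what the genes are known to do, with earlier results of these data already known. All 43 had reads in every library, with a lowest count of 142, and all 43 passed the low-count filters of the fits below. They fall into 9 groups by role, from origin licensing to the G1/S cyclins. The cells came from RjOrl:SWISS mice, at an age that the sources used here do not state. The cells of all 11 libraries were transfected with siRNA by lipofection (Lipofectamine RNAiMax). In 3 libraries, called scramble, the siRNA was nontargeting, and 8 received 30 pmol of siRNA against Akt1, a serine/threonine kinase of the PI3K pathway. The 8 Akt1 libraries came from 4 pools with 2 libraries each, and 4 siRNAs against Akt1 were combined in sets of 3. The one left out was siRNA 9 in pool 1, siRNA 7 in pool 2, siRNA 8 in pool 3 and siRNA 6 in pool 4, if the pool numbers of the protocol are those of the sample titles, which is assumed here. The transfection mix was removed after 5 h and RNA was taken at 30 h. The knockdown is transient, any pair of pools has 2 siRNAs in common, and no library comes from cells without siRNA.

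A cell prepares its origins in G1, when the origin recognition complex, CDC6 and CDT1 load rings of the MCM helicase onto DNA. Cyclin D with CDK4, and cyclin E with CDK2, phosphorylate the retinoblastoma protein, which frees E2F factors to transcribe many replication genes. In S phase CDC45 and the GINS complex bind the loaded MCM ring to form the active helicase, and the polymerases, the sliding clamp and the enzymes of nucleotide supply follow at the fork. Granulosa cells divide as the ovarian follicle grows, and cyclin D2 is known as the D-type cyclin that FSH induces in them.

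Promoters were searched because E2F factors are known to bind there in many of these genes. The RefSeq table of promoters (GRCm38.p6) matched 34 of the 43 genes, with 40 promoters, and held none for Mcm4, Gins1, Gins2, Rfc2, Pole, Prim2, Ccne2, Ccnd1 and Ccnd2. The 250 bases before the start were searched on both strands for the E2F letters TTTCCCGC, TTTCGCGC, TTTGCCGC and TTTGGCGC, whose matches can overlap each other. They stood in 10 of the 40 promoters (25%), in 15 of 80 promoters of other genes of the pathway (18.8%) and in 611 of 32841 promoters of all genes (1.86%). The 10 genes were Mcm6, Orc1, Mcm7, Rfc3, Mcm5, Gins3, Cdk2, Cdc6, Uhrf1 and Pola1. Mcm7 and Uhrf1 each have a further promoter, which held none of the E2F letters. Another set of letters, TTTGAA, the core of the cell cycle homology region of mitosis genes, stood in 4 of the 40 promoters (10%), against 16% of all promoters and 37.5% of 16 promoters of mitosis genes. For 6 of the 10 genes, those with values below and the smallest p in the test among pools, 120 bases are shown 5′ to 3′ on the gene's strand, with the E2F letters in capitals. They are shown so that the letters can be set beside the values of each gene. The stretches are chr8:75109340-75109459 (plus strand) for Mcm5, chr5:138171949-138172068 (minus strand) for Mcm7, chr17:56304108-56304227 (plus strand) for Uhrf1, chr8:95633439-95633558 (plus strand) for Gins3, chrX:93632194-93632313 (minus strand) for Pola1 and chr11:98907993-98908112 (plus strand) for Cdc6.
Mcm5: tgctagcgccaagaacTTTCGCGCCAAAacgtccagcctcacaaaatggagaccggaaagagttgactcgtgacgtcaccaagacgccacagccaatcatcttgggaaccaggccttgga
Mcm7: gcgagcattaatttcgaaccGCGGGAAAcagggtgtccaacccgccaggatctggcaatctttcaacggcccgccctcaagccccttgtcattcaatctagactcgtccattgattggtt
Uhrf1: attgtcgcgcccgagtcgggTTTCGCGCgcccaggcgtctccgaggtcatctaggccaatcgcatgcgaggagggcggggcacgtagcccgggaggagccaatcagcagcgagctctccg
Gins3: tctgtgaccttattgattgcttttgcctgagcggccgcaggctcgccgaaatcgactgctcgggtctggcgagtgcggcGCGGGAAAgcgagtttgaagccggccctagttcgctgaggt
Pola1: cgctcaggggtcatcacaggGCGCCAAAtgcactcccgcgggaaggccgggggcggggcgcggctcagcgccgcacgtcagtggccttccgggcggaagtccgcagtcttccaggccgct
Cdc6: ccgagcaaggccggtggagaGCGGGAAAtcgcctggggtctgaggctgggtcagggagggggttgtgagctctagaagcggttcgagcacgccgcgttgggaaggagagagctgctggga
In Mcm5 a pair of matches overlap. The match is a description of the letters and shows no binding. Genes with these letters differed in direction: as given below, Mcm5 was higher in pool 2 than in the other pools and lower in pool 3, while Mcm7, Uhrf1 and Pola1 were lower in pool 2 and higher in pool 3.

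Libraries held 23851293 to 32643158 reads in genes. Levels are given as CPM, a gene's counts scaled to the library's total in genes. Akt1 was at 529, 428 and 399 CPM in scramble replicates 1 to 3 and between 52.7 and 81.7 CPM in the 8 pool libraries, lower in every pool (log2 fold change of all pools −2.87, SE 0.13, edgeR adjusted p = 4.22e-07). It was 52.7 and 55.1 in pool 2 and 79.3 and 81.7 in pool 3, and differed among the pools (edgeR adjusted p = 1.78e-07). Scramble replicate 1 stood apart: its median correlation with the other libraries was 0.947, against at least 0.992 for each of the others, so comparisons with scramble are given with and without it. Granulosa markers were present (Foxl2 at 112 to 203 CPM and Inha at 1241 to 3486), but Fshr, the FSH receptor, was near absent at 0.0669 to 0.367 CPM, and Amh was at 0.21 to 0.827. The summed level of 9 granulosa markers, 7 of them above 1 CPM in every library, was 2683 to 2912 CPM in pool 2, 1859 to 1982 in pool 3, 2343 to 2538 in pools 1 and 4, and 3018 to 3238 in scramble replicates 2 and 3. That of 8 theca and stroma markers, 6 of them above 1 CPM throughout, was 3510 to 3616, 2446 to 2498, 2741 to 2905 and 3390 to 3842 in the same order. Markers of immune cells (5.38 to 10.4 CPM in all), endothelium (3.34 to 14.2) and oocytes (2.89 to 8.03) were low, and those of surface epithelium lay at 72.2 to 144; no marker was at 0 in every library, while Zp3 was at 0 in 5 libraries and Ptprc in 2. These sums move with the pools, as the genes below do, and their part in the results was not tested. Few genes carry most of the granulosa and the theca and stroma sums. From pool 2 to pool 3, Inha went from 1919 and 2076 to 1241 and 1362 CPM, and Acta2 from 1898 and 1805 to 891 and 834. Col1a1 overlapped (1360 and 1534, then 1369 and 1469), and Pdgfra was higher in pool 3 (55.5 and 63.5, then 64.7 and 66.2). In scramble replicate 1 these 2 sums were 3951 and 4441. In a bulk sample, fewer cells in a phase of the cycle and less RNA of a gene per cell cannot be told apart.

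Per kilobase of summed exon length, a scale on which genes can be compared, Ccnd2 (cyclin D2) stood highest at 133 CPM per kilobase over the 8 pool libraries. Cdk4, its kinase partner, followed at 109, and then Rrm2 and Rrm1, the subunits of ribonucleotide reductase, at 47.6 and 38.3. Of the helicase ring, Mcm4 was at 31.0, Mcm3 at 24.5 and Mcm6 at 22.7 CPM per kilobase. The lowest were Orc1, the largest subunit of the origin recognition complex, at 2.83, Gins3 at 2.98 and Mcm10 at 3.02. Genes of 1 complex were thus not at 1 level: among the GINS subunits, Gins1 was at 5.45, Gins2 at 5.56 and Gins3 at 2.98. The lengths sum all annotated exons, so a gene with long unused exons reads too low on this scale.

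The 4 pools differed in replication genes, although each lowered Akt1. Among the pools, Ccnd2, Ccnd1, E2f1, Cdt1, Mcm2, Mcm3 and Mcm7 were lowest in pool 2 and highest in pool 3, while Mcm5, Cdc45, Fen1 and Tk1 had the reverse order. When all 4 pools were compared in 1 test (edgeR quasi-likelihood F test on the 8 pool libraries, Benjamini-Hochberg adjusted p below 0.05), 23 of the 43 genes passed (53.5%). Of all 14056 genes tested, 48.6% passed, so the share among the 43 was near that of genes in general. Against the mean of the other pools, 22 of 43 differed in pool 2, 6 higher and 16 lower, where 47.6% of all genes differed, 25.3% higher and 22.3% lower. In pool 3, 23 of 43 differed, 15 higher and 8 lower, where 44.5% of all genes did, 20.4% higher and 24.1% lower. Neither pool 1 nor pool 4 had a called member with edgeR (background 2.99% and 2.37%) or DESeq2 (2.13% and 2.31%), with 5 and 2 members at an unadjusted edgeR p below 0.05 (15.0% and 12.6% of all genes). The differences were small: the median size over the 43 genes was 0.13 on the log2 scale for pool 2 and 0.13 for pool 3, against 0.15 and 0.14 for all genes. These comparisons share libraries, since pool 3 is among the others for pool 2 and the reverse, so their directions are not independent. Without any scaling factor the split of members was 6 higher and 22 lower in pool 2 and 18 higher and 6 lower in pool 3, and the split of all genes went from 3562 higher and 3130 lower to 2752 and 4657 in pool 2, and from 2862 and 3387 to 3949 and 2618 in pool 3. A fit of all 11 libraries, whose spread includes scramble replicate 1, called 0 members in the test among pools, 1 in pool 2 and 0 in pool 3 (2.46%, 5.25% and 1.83% of all genes). The same fit without that library called 21, 22 and 22 (42.8%, 43.7% and 39.6%).

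**Figure D1:**
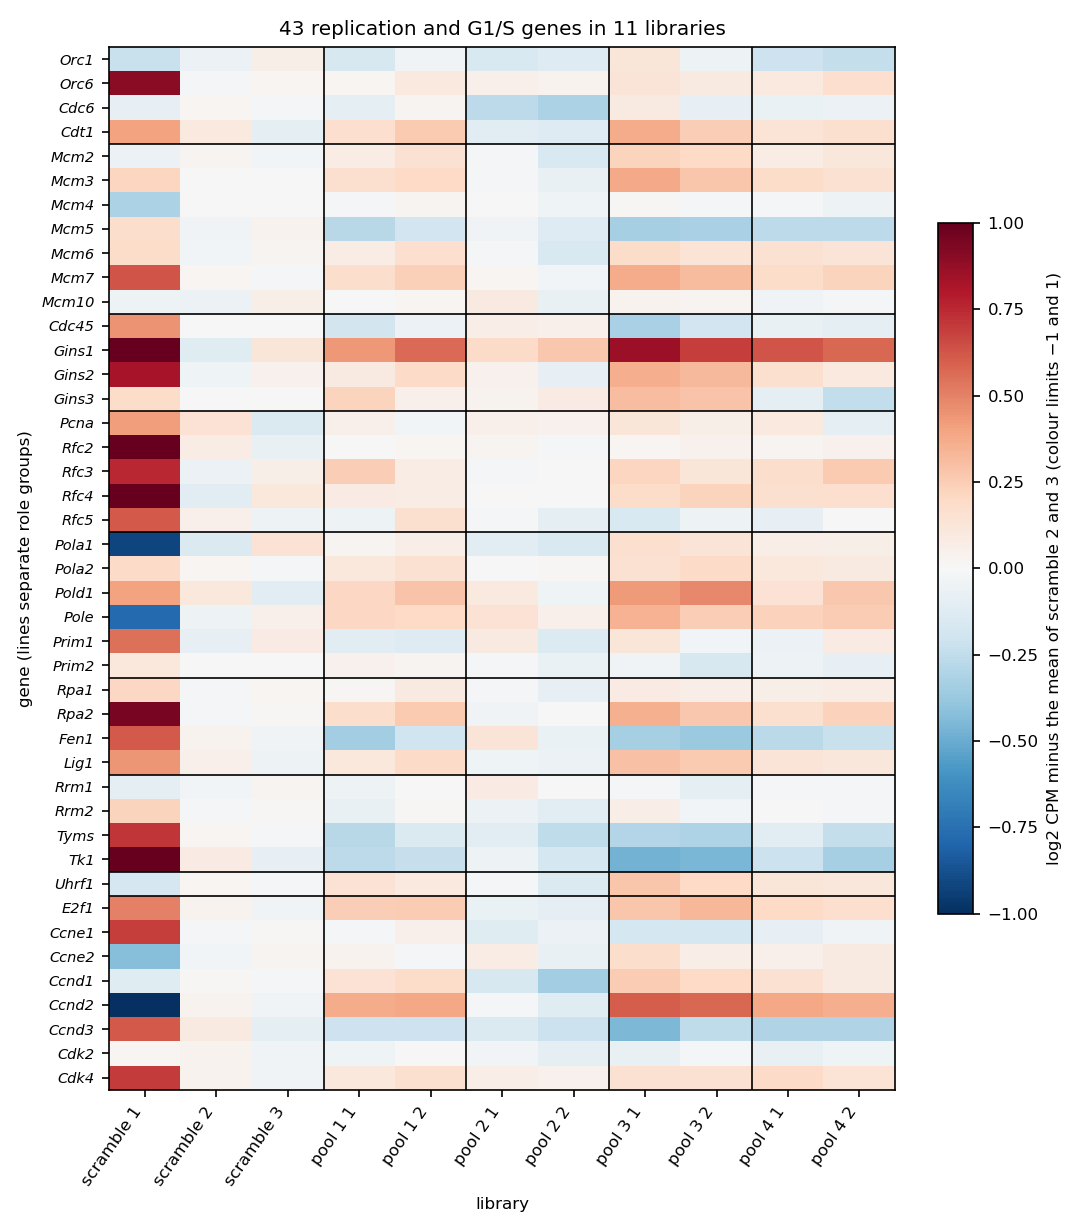
CPM of the 43 genes (rows, by role group) in the 11 libraries (columns), as log2 CPM minus the mean of scramble replicates 2 and 3, with colours limited to −1 and 1. Scramble replicate 1 differs from the other scramble libraries in most rows, and Ccnd2, Mcm3 and Gins1 are redder in pool 3 (1503 and 1469.9 CPM for Ccnd2) than in pool 2 (982 and 908).

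**Figure D2:**
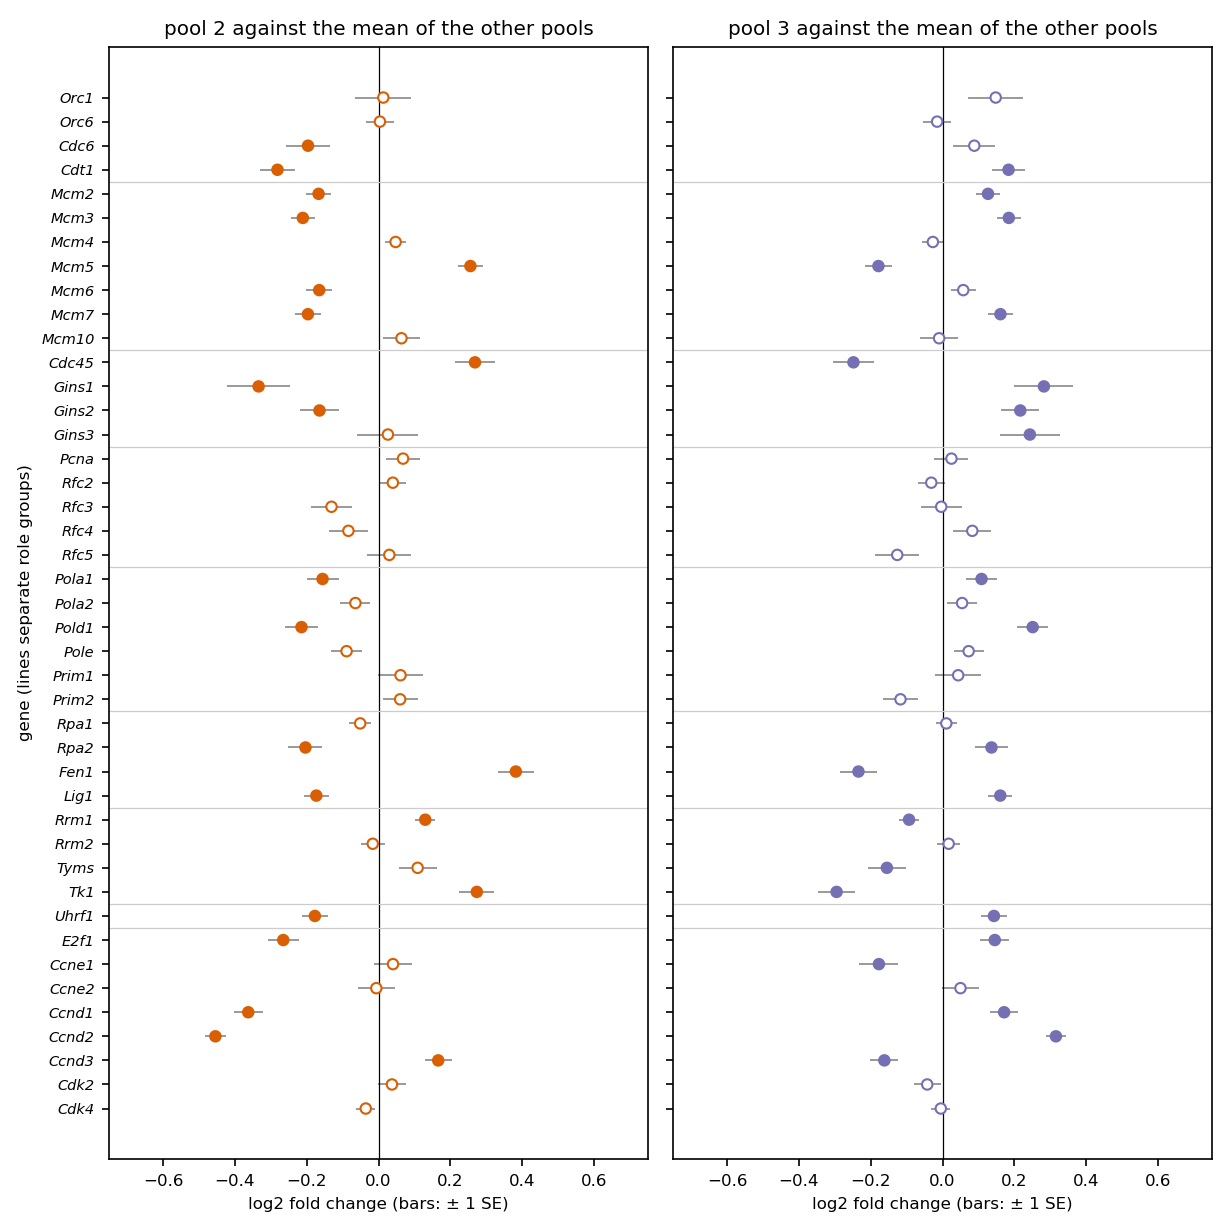
Log2 fold change of each of the 43 genes in pool 2 (left) and pool 3 (right) against the mean of the other 3 pools, with bars of 1 SE; filled points passed an edgeR adjusted p of 0.05. There are 22 filled points on the left, 16 of them below 0, and 23 on the right, 15 of them above 0.

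Licensing factors gave 2 called members of 4 in pool 2, both lower (47.6% of all genes were called, 22.3% lower). In pool 3 there was 1, higher (44.5% of all genes, 20.4% higher). Cdt1, which loads the MCM ring and is destroyed once S phase starts, was at 34.8 and 37.1 CPM in pool 1, 28.7 and 28.3 in pool 2, 40.0 and 36.7 in pool 3, 33.9 and 34.5 in pool 4, and 40.8, 33.1 and 28.8 in scramble replicates 1 to 3. Both pool 2 libraries were below the other pool libraries, and pool 3 overlapped pool 1. Cdt1 was lower in pool 2 (log2 fold change −0.28, SE 0.05, edgeR adjusted p = 4.77e-05) and higher in pool 3 (0.18, SE 0.05, 0.00253), the latter not without pool 3 replicate 1 (0.12, adjusted p = 0.0981). Cdc6, the ATPase that recruits CDT1, was at 19.5 and 21.2 CPM in pool 1, 17.4 and 16.8 in pool 2, 22.2 and 19.7 in pool 3, 19.9 and 20.0 in pool 4, and 19.7, 21.1 and 20.6 in scramble. The pool 2 libraries were the lowest of the 11. Its difference in pool 2 was −0.20 (SE 0.06, edgeR adjusted p = 0.0107) and was not called without pool 2 replicate 2 (−0.17, adjusted p = 0.0984) or with DESeq2 (adjusted p = 0.0581). Orc1 and Orc6, subunits of the origin recognition complex, passed in neither pool, with log2 fold changes of 0.01 and 0.00 in pool 2 and 0.15 and −0.02 in pool 3.

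The subunits of the MCM helicase did not go together. This group has 7 members, 6 MCM2-7 ring subunits and Mcm10. In pool 2, 5 of them passed (47.6% of all genes), 4 lower. In pool 3, 4 passed (44.5%), 3 higher. Mcm3 was at 91.6 and 94.1 CPM in pool 1, 81.2 and 77.7 in pool 2, 107 and 99.2 in pool 3, 93.0 and 91.1 in pool 4, and 95.2, 81.9 and 82.0 in scramble. Mcm7 was at 61.1 and 63.9 CPM in pool 1, 54.8 and 53.1 in pool 2, 69.8 and 67.2 in pool 3, 61.5 and 63.2 in pool 4, and 83.5, 54.9 and 53.2 in scramble. Mcm2 was at 128 and 135 CPM in pool 1, 119 and 109 in pool 2, 142 and 139 in pool 3, 128 and 131 in pool 4, and 116, 124 and 119 in scramble. For these 3 subunits, neither pool 2 nor pool 3 overlapped the other pool libraries, and pool 2 lay near scramble replicates 2 and 3. Their log2 fold changes in pool 2 were −0.21 for Mcm3, −0.20 for Mcm7 and −0.17 for Mcm2 (SE 0.03, 0.04 and 0.03, edgeR adjusted p = 2.78e-05, 0.000102 and 0.000366). In pool 3 they were 0.18, 0.16 and 0.13 (SE 0.03 each, edgeR adjusted p = 0.000109, 0.00068 and 0.00402), and that of Mcm2 was not called without pool 3 replicate 1 (0.11, adjusted p = 0.0606).

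Mcm5, a subunit of the same ring, had the reverse order. It was at 61.8 and 65.7 CPM in pool 1, 73.4 and 68.6 in pool 2, 59.5 and 60.0 in pool 3, 62.5 and 62.4 in pool 4, and 84.6, 73.2 and 76.9 in scramble. The libraries of pools 1, 3 and 4 were below every scramble library, and pool 2 lay between them and scramble, overlapping the lowest scramble library. Its log2 fold change was 0.26 in pool 2 (SE 0.04, edgeR adjusted p = 3.85e-06) and −0.18 in pool 3 (SE 0.04, 0.000446). Mcm6 fell in pool 2 (−0.17, SE 0.04, edgeR adjusted p = 0.00065) and was at 0.06 in pool 3 (adjusted p = 0.197), and Mcm4 and Mcm10, a factor that helps activate the helicase, passed in neither. Mcm7 shares exons with Mir25 and Mir93 on its own strand and with Ap4m1 and Cops6 on the other, and the strand setting of the counting is not given in the sources used here.

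**Figure D3:**
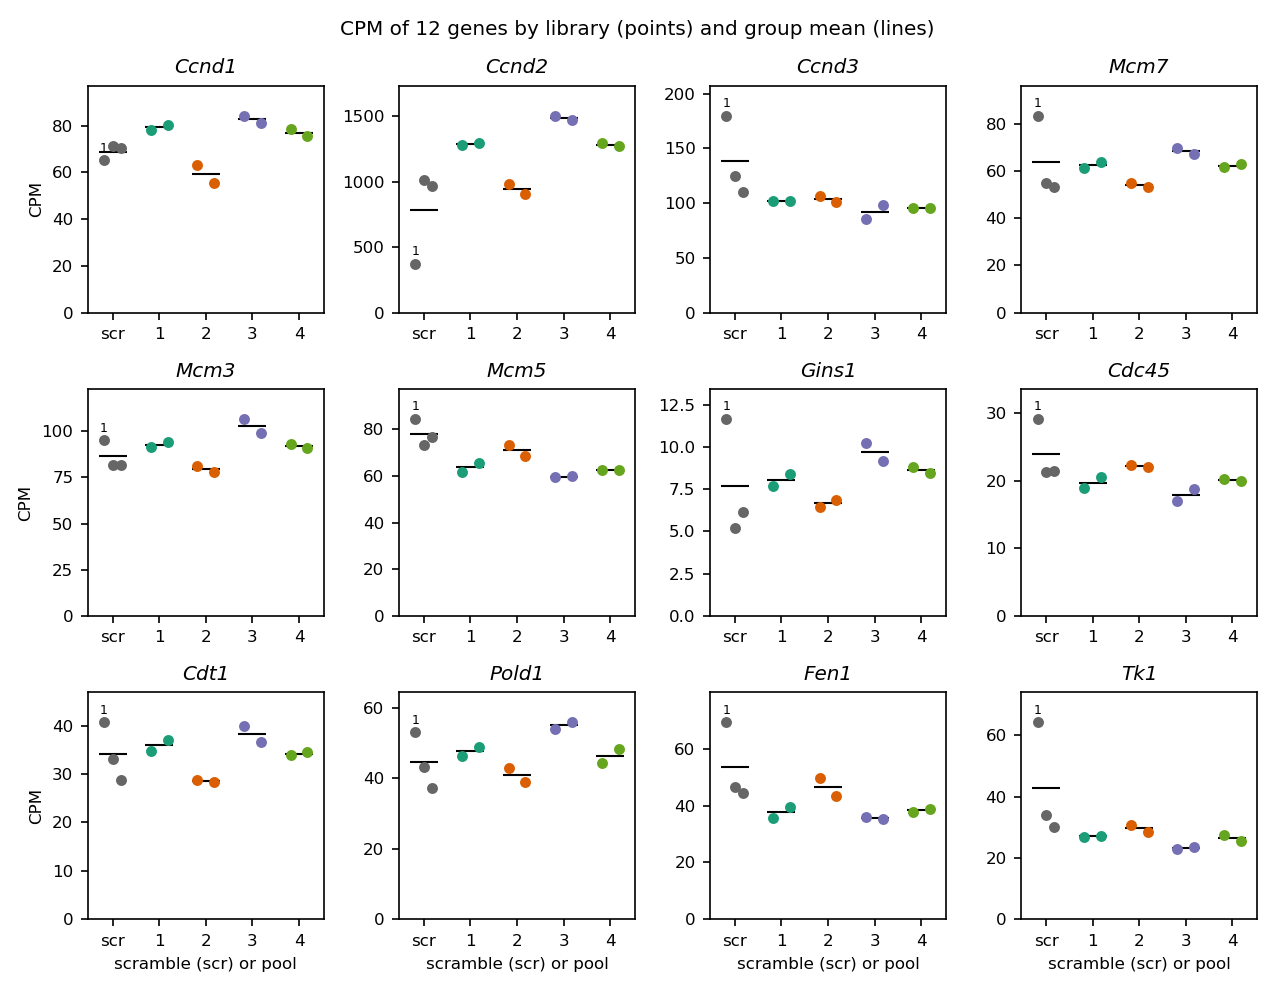
CPM (linear axis from 0, with its own scale in each panel) of 12 genes in each library, as points with group means as lines; scr is scramble, 1 to 4 are the pools, and the point marked 1 is scramble replicate 1. Ccnd2, Ccnd1, Mcm3 and Mcm7 are lowest in pool 2 and highest in pool 3 among the pools, while Mcm5, Cdc45, Fen1 and Tk1 are highest in pool 2 and lowest in pool 3.

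The partners of MCM in the active helicase divided in the same way. All 4 members of the CDC45 and GINS group passed the test among pools (48.6% of all genes), and 1 of 4 did with DESeq2 (36.8%). Cdc45, which links the ring to GINS, was at 18.8 and 20.5 CPM in pool 1, 22.4 and 22.1 in pool 2, 17.0 and 18.7 in pool 3, 20.3 and 20.0 in pool 4, and 29.2, 21.3 and 21.4 in scramble. Gins1, a subunit of the GINS tetramer, was at 7.67 and 8.40 CPM in pool 1, 6.47 and 6.86 in pool 2, 10.3 and 9.15 in pool 3, 8.80 and 8.44 in pool 4, and 11.7, 5.23 and 6.16 in scramble. Neither gene's pool 2 or pool 3 libraries overlapped the rest of the pool libraries, in reverse orders. Cdc45 was at 0.27 in pool 2 (SE 0.06, edgeR adjusted p = 0.000392) and −0.25 in pool 3 (SE 0.06, 0.00142). Gins1 was at −0.33 in pool 2 (SE 0.09, edgeR adjusted p = 0.00341) and 0.28 in pool 3 (SE 0.08, 0.00819). Without pool 3 replicate 1 the pool 3 values were −0.18 for Cdc45 (adjusted p = 0.0582) and 0.20 for Gins1 (adjusted p = 0.162), and without pool 2 replicate 1 the pool 2 value of Gins1 was −0.29 (adjusted p = 0.0572). The DESeq2 adjusted p of Gins1 in pool 3 was 0.0581.

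Gins2, another GINS subunit, was at 21.8 and 23.4 CPM in pool 1, 21.1 and 19.3 in pool 2, 26.4 and 25.5 in pool 3, 22.9 and 21.8 in pool 4, and 36.3, 19.9 and 21.0 in scramble. Gins3 was at 8.83 and 7.83 CPM in pool 1, 7.75 and 8.00 in pool 2, 9.37 and 9.21 in pool 3, 7.12 and 6.38 in pool 4, and 8.61, 7.55 and 7.59 in scramble. Pool 3 was highest of the pools for both, and for Gins3 the lowest was pool 4, not pool 2. Gins2 was at −0.16 in pool 2 (SE 0.05, edgeR adjusted p = 0.0172) and 0.22 in pool 3 (SE 0.05, 0.00207), the former not called without pool 2 replicate 2 (−0.11, adjusted p = 0.266) or with DESeq2 (adjusted p = 0.0901). Gins3 was at 0.24 in pool 3 (SE 0.08, edgeR adjusted p = 0.0216), and this call was lost without pool 3 replicate 1 (0.23, adjusted p = 0.123), without pool 3 replicate 2 (0.26, adjusted p = 0.0862) and with DESeq2 (adjusted p = 0.119). In pool 4 it was at −0.33 (SE 0.09, edgeR adjusted p = 0.0554), which did not pass; it did without the low-count filter (−0.33, adjusted p = 0.0161) and without pool 1 replicate 2 (−0.36, adjusted p = 0.0432).

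The clamp and its loader gave no call. None of Pcna, the sliding clamp, and Rfc2, Rfc3, Rfc4 and Rfc5, subunits of its loader, passed the test among pools with edgeR or DESeq2. The smallest edgeR adjusted p was 0.18, and 0 of 5 were at an unadjusted p below 0.05. Of all genes, 48.6% passed with edgeR and 36.8% with DESeq2. Pcna has pseudogenes by name, Pcna-ps1 and Pcna-ps2, that could take part of its reads. Rfc3 was at 24.0 and 21.3 CPM in pool 1, 20.1 and 20.2 in pool 2, 23.5 and 22.0 in pool 3, 22.8 and 24.3 in pool 4, and 34.1, 19.5 and 21.0 in scramble. Rfc5 was at 19.9 and 23.0 CPM in pool 1, 20.2 and 19.3 in pool 2, 18.5 and 19.8 in pool 3, 19.4 and 20.5 in pool 4, and 31.4, 21.3 and 19.8 in scramble. Both pool 2 libraries were the lowest of the pools for Rfc3 (log2 fold change −0.13, SE 0.06, edgeR adjusted p = 0.0668), and for Rfc5 the pools overlapped. The pool 2 difference of Rfc3 passed without a scaling factor (−0.19, adjusted p = 0.00853), without pool 1 replicate 2 (−0.16, 0.0232) and with only genes above 1 CPM in every library (−0.14, 0.0484), and the pool 3 difference of Rfc5 (−0.13, SE 0.06, edgeR adjusted p = 0.102) passed without pool 1 replicate 1 (−0.15, 0.0412).

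Among the polymerases and primase, 2 of 6 passed the test among pools (48.6% of all genes), Pold1 and Pola1, in the same direction. Pold1, the catalytic subunit of the lagging strand polymerase, was at 46.3 and 48.8 CPM in pool 1, 42.9 and 39.0 in pool 2, 54.0 and 55.9 in pool 3, 44.3 and 48.3 in pool 4, and 53.1, 43.2 and 37.1 in scramble. Pola1, the catalytic subunit of the polymerase that extends primers, was at 31.0 and 31.9 CPM in pool 1, 28.2 and 27.4 in pool 2, 34.1 and 33.2 in pool 3, 31.9 and 31.7 in pool 4, and 16.1, 27.6 and 33.6 in scramble. For both genes pool 2 was below and pool 3 above the other pool libraries, with no overlap. Pold1 was at −0.21 in pool 2 (SE 0.05, edgeR adjusted p = 0.000507) and 0.25 in pool 3 (SE 0.04, 7.35e-05). Pola1 was at −0.16 in pool 2 (SE 0.04, edgeR adjusted p = 0.00643; −0.14 and 0.08 without pool 2 replicate 2, and adjusted p = 0.0502 with DESeq2). Its pool 3 difference of 0.11 (SE 0.04, edgeR adjusted p = 0.0475) was not called without any single pool library other than pool 1 replicate 2 (adjusted p between 0.0527 and 0.227), without the low-count filter (adjusted p = 0.0966) and with DESeq2 (adjusted p = 0.191). Pola2, Pole, Prim1 and Prim2, the other subunits, lay between −0.09 and 0.06 in pool 2 and between −0.12 and 0.07 in pool 3 and did not pass.

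At the lagging strand, 3 of 4 genes passed the test among pools (48.6% of all genes). Fen1, the nuclease that trims Okazaki fragment flaps, was at 35.8 and 39.6 CPM in pool 1, 49.6 and 43.4 in pool 2, 36.0 and 35.2 in pool 3, 37.7 and 38.9 in pool 4, and 69.5, 46.6 and 44.4 in scramble. Lig1, the ligase that seals the fragments, was at 70.2 and 74.7 CPM in pool 1, 63.5 and 62.6 in pool 2, 79.9 and 78.4 in pool 3, 71.4 and 70.6 in pool 4, and 88.7, 67.7 and 63.1 in scramble. Rpa2, a subunit of the single-strand binding protein, was at 32.5 and 34.7 CPM in pool 1, 28.1 and 28.8 in pool 2, 36.8 and 34.8 in pool 3, 32.2 and 33.9 in pool 4, and 55.6, 28.6 and 29.1 in scramble. Fen1 was highest in pool 2 and Lig1 and Rpa2 lowest there, each without overlap with the other pool libraries. Fen1 was at 0.38 in pool 2 (SE 0.05, edgeR adjusted p = 1.42e-06) and −0.23 in pool 3 (SE 0.05, 0.000892). Lig1 was at −0.17 in pool 2 (SE 0.03, edgeR adjusted p = 0.000237) and 0.16 in pool 3 (SE 0.03, 0.000451). Rpa2 was at −0.20 in pool 2 (SE 0.05, edgeR adjusted p = 0.00123) and 0.14 in pool 3 (SE 0.05, 0.0198; 0.10 and 0.221 without pool 3 replicate 1, and adjusted p = 0.0909 with DESeq2). Fen1 shares exons with Tmem258 and Gm10143 on the other strand, and Rpa1, the largest subunit, passed in neither pool.

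Nucleotide supply went the way of Mcm5 and Fen1. In pool 2, 2 of its 4 genes passed, both higher (47.6% of all genes passed, 25.3% higher). In pool 3 the number was 3, all lower (44.5%, 24.1% lower). Tk1, thymidine kinase of the salvage route, was at 26.7 and 27.2 CPM in pool 1, 30.8 and 28.4 in pool 2, 23.0 and 23.4 in pool 3, 27.5 and 25.5 in pool 4, and 64.4, 33.9 and 30.2 in scramble. Rrm1, the large subunit of ribonucleotide reductase, was at 411 and 424 CPM in pool 1, 449 and 426 in pool 2, 421 and 400.5 in pool 3, 422 and 419.9 in pool 4, and 397, 416 and 435 in scramble. Tyms, thymidylate synthase, was at 28.9 and 31.8 CPM in pool 1, 32.7 and 29.5 in pool 2, 28.7 and 28.4 in pool 3, 32.7 and 29.9 in pool 4, and 57.7, 35.6 and 34.8 in scramble. Tk1 was highest in pool 2 and lowest in pool 3 without overlap among the pools, Rrm1 was highest in pool 2 and overlapped in pool 3, and Tyms was lowest in pool 3 and below every scramble library in all pools. Tk1 was at 0.27 in pool 2 (SE 0.05, edgeR adjusted p = 9.16e-05) and −0.30 in pool 3 (SE 0.05, 8e-05). Rrm1 was at 0.13 in pool 2 (SE 0.03, edgeR adjusted p = 0.00057) and −0.09 in pool 3 (SE 0.03, 0.0103), the latter not called without pool 3 replicate 2 (−0.05, 0.286) or without a scaling factor (−0.05, 0.149). Tyms was at 0.11 in pool 2 (SE 0.05, edgeR adjusted p = 0.097), which passed without pool 2 replicate 2 (0.18, 0.0403), and at −0.16 in pool 3 (SE 0.05, 0.0236), which was lost without pool 1 replicate 2, pool 2 replicate 1, pool 3 replicate 1, pool 3 replicate 2 or pool 4 replicate 1 (adjusted p between 0.0545 and 0.163), without a scaling factor (0.0932) and with DESeq2 (0.0933). Rrm2, the small subunit of ribonucleotide reductase, was at −0.02 and 0.02 and did not pass. Tk1 shares exons with Afmid on the other strand, and Tyms has a pseudogene by name, Tyms-ps, that could take part of its reads.

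Uhrf1, which brings the maintenance DNA methyltransferase to replicated DNA, was at 72.4 and 70.1 CPM in pool 1, 64.7 and 59.4 in pool 2, 79.3 and 75.4 in pool 3, 71.2 and 70.8 in pool 4, and 58.4, 66.6 and 64.6 in scramble. It was lowest in pool 2 and highest in pool 3 among the pool libraries, without overlap. Its log2 fold change was −0.18 in pool 2 (SE 0.04, edgeR adjusted p = 0.000437) and 0.14 in pool 3 (SE 0.04, 0.00271; 0.11 and 0.0806 without pool 3 replicate 1).

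The 3 D-type cyclins, partners of CDK4 and CDK6 in G1, did not share 1 pattern. Ccnd2 (chr6:127125162-127152193, mm10, minus strand) was at 1281 and 1294 CPM in pool 1, 982 and 908 in pool 2, 1503 and 1469.9 in pool 3, 1292 and 1271 in pool 4, and 372, 1012 and 966 in scramble. Ccnd1 (chr7:144929931-144939925, mm10, minus strand) was at 78.1 and 80.5 CPM in pool 1, 63.3 and 55.7 in pool 2, 84.4 and 81.3 in pool 3, 78.6 and 75.6 in pool 4, and 65.3, 71.4 and 70.3 in scramble. Ccnd3 (chr17:47505051-47599691, mm10, plus strand) was at 102 and 102 CPM in pool 1, 106 and 101 in pool 2, 85.9 and 98.5 in pool 3, 95.2 and 95.6 in pool 4, and 180.0, 125 and 111 in scramble. Ccnd2 overlapped scramble replicates 2 and 3 in pool 2 and was above all scramble libraries in the other pools, Ccnd1 was below all scramble libraries in pool 2 and above them in the other pools, and Ccnd3 was below all scramble libraries in every pool. Ccnd2 was at −0.45 in pool 2 (SE 0.03, edgeR adjusted p = 4.53e-11) and 0.32 in pool 3 (SE 0.03, 1.25e-08), and had the smallest p of the 43 genes in the test among pools (1.88e-10). Ccnd1 was at −0.36 in pool 2 (SE 0.04, edgeR adjusted p = 2.15e-07) and 0.17 in pool 3 (SE 0.04, 0.00119). Ccnd3 was at 0.17 in pool 2 (SE 0.04, edgeR adjusted p = 0.00112) and −0.16 in pool 3 (SE 0.04, 0.00195; −0.07 and 0.175 without pool 3 replicate 1). Each of the 3 shares exons with a gene on the other strand: LTO1 for Ccnd1, 9330179D12Rik and Gm43126 for Ccnd2, and Bysl for Ccnd3, which also has a pseudogene by name, Ccnd3-ps.

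E2f1, the transcription factor that the retinoblastoma protein holds in check, was at 38.3 and 38.5 CPM in pool 1, 30.9 and 30.4 in pool 2, 39.2 and 40.7 in pool 3, 37.1 and 36.3 in pool 4, and 45.8, 33.1 and 31.6 in scramble. Pool 2 was below, and pool 3 above, the other pool libraries. Its log2 fold change was −0.27 in pool 2 (SE 0.04, edgeR adjusted p = 2.4e-05) and 0.15 in pool 3 (SE 0.04, 0.00639; 0.12 and 0.0802 without pool 3 replicate 2). The kinases did not pass: Cdk4 was at −0.04 and −0.01 and Cdk2 at 0.04 and −0.04 in pools 2 and 3. Of the E-type cyclins, which act with CDK2, Ccne2 did not pass (−0.01 and 0.05), and Ccne1 was lower in pool 3 (−0.18, SE 0.05, edgeR adjusted p = 0.0116), named here after its values were seen.

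Counted by library rather than by test, both pool 2 libraries were above the other 6 pool libraries in CPM for 5 of the 43 genes, Mcm5, Cdc45, Fen1, Rrm1 and Tk1 (18.8% of all genes were), and below them for 22 (31.8% of all genes). Both pool 3 libraries were above for 16 genes (24.9%) and below for 5, Mcm5, Cdc45, Tyms, Tk1 and Ccne1 (16.9%). In pool 1 the counts were 2 above (Prim2 and Ccne1; background 3.82%) and 0 below (1.44%), and in pool 4 they were 0 above (1.73%) and 2 below (Orc1 and Gins3; 2.01%), and the genes named in this count were taken after their values were seen. These CPM carry no scaling factor between libraries.

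**Figure D4:**
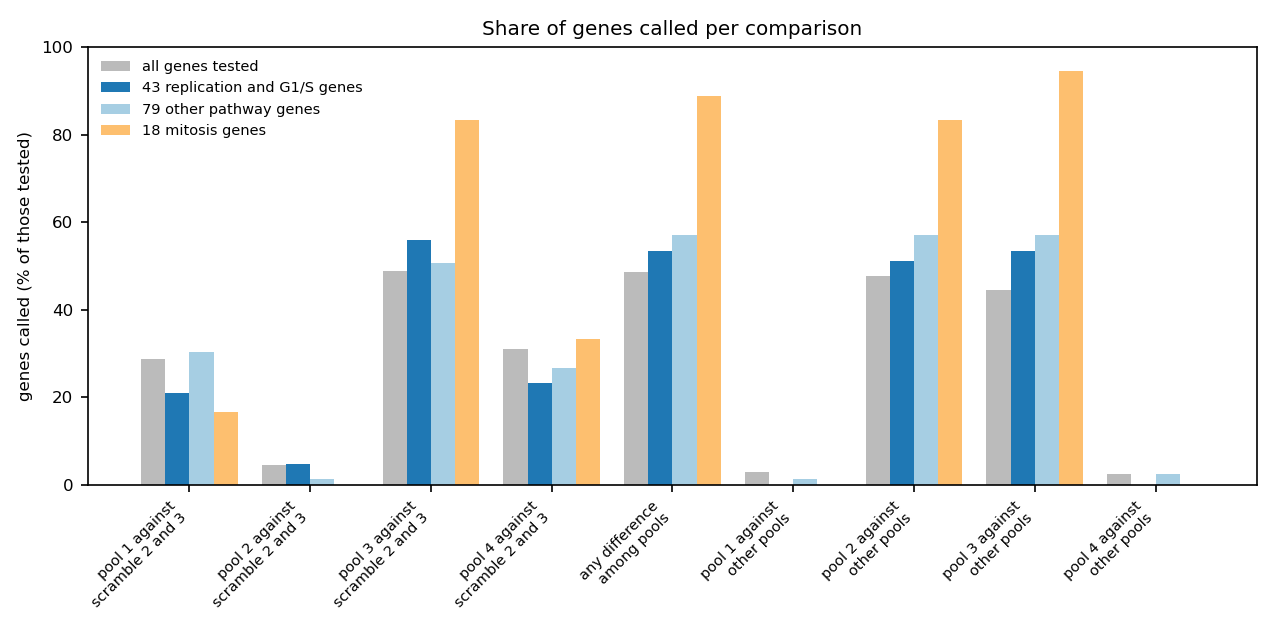
Share of genes with an edgeR adjusted p below 0.05 in each comparison, in percent, for all genes tested (grey), the 43 replication and G1/S genes, 79 other genes of the pathway and 18 mitosis genes; scramble is without replicate 1 here. In pools 2 and 3 against the other pools the 43 genes (51.2% and 53.5%) stand close to all genes (47.6% and 44.5%) and the mitosis genes higher (83.3% and 94.4%).

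Pool 3 was also set against the mean of pools 1 and 4, a comparison added after the values were seen. There, 12 of the 43 genes passed, 7 higher and 5 lower, against 29.9% of all genes (12.7% higher and 17.2% lower). Ccnd2 was at 0.18 (SE 0.03, edgeR adjusted p = 9.4e-05), Pold1 at 0.20 (SE 0.05, 0.00214), Tk1 at −0.23 (SE 0.05, 0.00301) and Mcm3 at 0.13 (SE 0.04, 0.00831). Ccnd1 and E2f1, both at 0.06 (adjusted p = 0.331 and 0.291), did not pass, and Mcm3 did not without pool 3 replicate 1 (0.08, edgeR adjusted p = 0.211). The count was 3 without pool 3 replicate 1 (17.2% of all genes), 7 without pool 1 replicate 2 (26.1%) and 4 with DESeq2 (22.3%).

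Against scramble, few of the genes passed. In this comparison both the Akt1 level and the siRNA sequences differ, and their parts cannot be told apart. With all 11 libraries, 0 of the 43 were called in all pools together by edgeR, and 1 of 14144 genes was called, Akt1 (0.00707%). At an unadjusted edgeR p below 0.05 there were 12 of the 43 (28.6% of all genes). DESeq2 called 5 of the 43, where it called 8.44% of all genes, and all 5 were lower: Mcm5, Fen1, Tyms, Tk1 and Ccnd3. Their edgeR log2 fold changes were −0.32 (SE 0.09), −0.47 (SE 0.14), −0.53 (SE 0.13), −0.72 (SE 0.18) and −0.53 (SE 0.12), with adjusted p between 0.108 and 0.111. In the authors' deposited table, which sets the pools against scramble, 4 of 36 genes with an adjusted p were below 0.05, all lower: Mcm5 (−0.31, adjusted p = 0.0235), Fen1 (−0.42, 0.0442), Tk1 (−0.61, 0.0155) and Ccnd3 (−0.49, 0.00738), where 9.72% of all genes in that table were. In single pools the counts were 0 in pool 1 (background 1.93%), 0 in pool 2 (0.00707%), 1 in pool 3 (11.2%; Mcm5 at −0.46, SE 0.09, edgeR adjusted p = 0.0142) and 0 in pool 4 (2.57%). The Mcm5 call was lost without pool 3 replicate 1 (−0.45, edgeR adjusted p = 0.146) and without pool 3 replicate 2 (−0.46, 0.124). At an unadjusted edgeR p below 0.05 there were 6, 1, 10 and 6 in pools 1 to 4 (14.8%, 4.62%, 26.5% and 16.1% of all genes), and DESeq2 called 1, 0, 6 and 1 (5.80%, 0.198%, 16.4% and 6.17%). Without scramble replicate 3 the count for all pools was 9, where 16.5% of all genes were called.

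Scramble replicate 1 was above both other scramble libraries for 30 of the 43 genes and below both for 11. The same counts over all genes were not taken, so these cannot be read as particular to the 43. For 28 of the 43 it lay farther from the median of the 11 libraries than any other did, as it did for 66.9% of all genes. Over all genes, its log2 difference from the mean of the other scramble libraries fell with exon length, from a median of 0.62 among the shortest to −0.68 among the longest. In each of 5 length classes, the median of those of the 43 genes in the class was above the median of all genes. These medians were 0.76, 0.43, 0.42, 0.11 and −0.10 over 4, 13, 12, 7 and 7 genes, though single genes lay below. Ccnd2, at 372 CPM in that library against 1012 and 966, stood lowest.

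**Figure D5:**
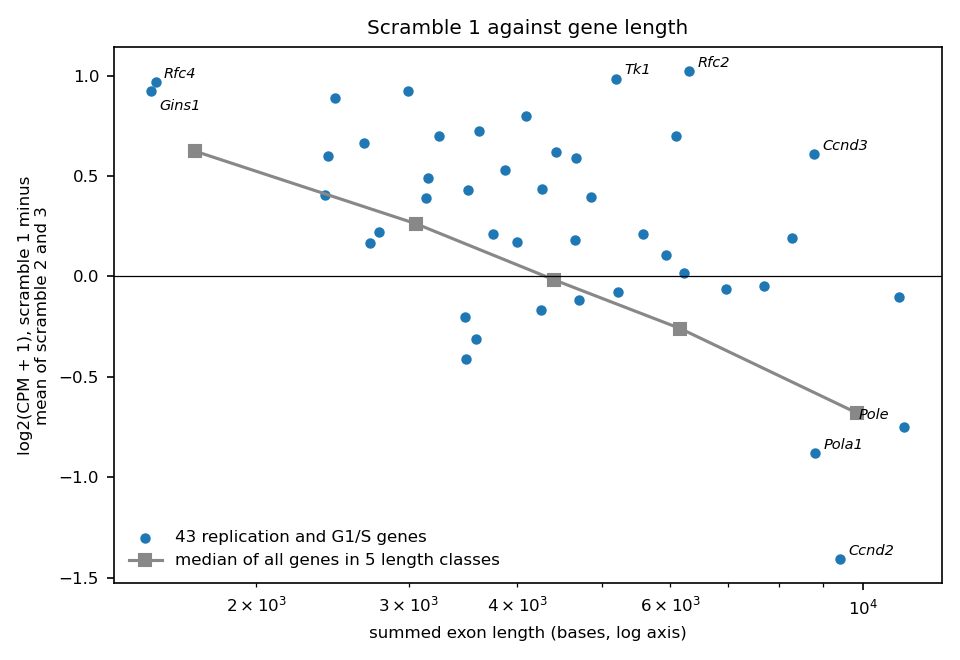
Log2(CPM + 1) of the 43 genes in scramble replicate 1 minus the mean of scramble replicates 2 and 3 (vertical axis), against summed exon length in bases (log axis); squares join the medians of all genes in 5 length classes. The squares go from 0.62 down to −0.68, and Ccnd2 lies lowest of the 43.

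Without that library, 0 of the 43 were called in all pools together by edgeR (background 0.469%), with 7 at an unadjusted p below 0.05 (21.3%). In pool 1, 9 were called (28.8% of all genes), 4 higher (11.8%) and 5 lower (17.0%). In pool 2 the count was 2 (4.39%), with 0 higher (1.71%) and 2 lower (2.69%), and in pool 4 it was 10 (31.0%), with 4 higher (13.2%) and 6 lower (17.8%). In pool 3 it was 24 (48.8%), with 14 higher (22.7%) and 10 lower (26.1%). Mcm5, Fen1, Tyms, Tk1 and Ccnd3 were lower, and Gins1, Mcm7 and Ccnd2 higher, in each of pools 1, 3 and 4, which share the scramble libraries. For Mcm5 the log2 fold changes were −0.30, −0.42 and −0.33 (SE 0.05 each), for Fen1 −0.34, −0.44 and −0.31 (SE 0.07 each), for Tk1 −0.32, −0.56 and −0.34 (SE 0.07 each) and for Ccnd2 0.31, 0.50 and 0.31 (SE 0.04 each) in pools 1, 3 and 4. With scramble replicate 1 included they were −0.35, −0.46 and −0.37 for Mcm5, −0.56, −0.65 and −0.52 for Fen1, −0.71, −0.95 and −0.73 for Tk1 and 0.66, 0.85 and 0.66 for Ccnd2, of which Mcm5 in pool 3 alone passed. With that library the Mcm7 values in pools 1 and 4 had the other sign (−0.08 each, against 0.14 each without it). Without it, pool 2 gave −0.10 for Mcm5, 0.01 for Fen1, −0.13 for Tk1 and −0.08 for Ccnd2, none of which passed (edgeR adjusted p = 0.339, 0.95, 0.326 and 0.347). With it these were −0.14, −0.20, −0.53 and 0.26 and did not pass either, those of Fen1 and Ccnd2 with the other sign. The 2 genes called in pool 2 were Ccnd1 (−0.27, SE 0.05, edgeR adjusted p = 0.00434) and Cdc6 (−0.30, SE 0.08, 0.0225). Ccnd1 was higher in pool 3 in the same fit (0.14, SE 0.05, edgeR adjusted p = 0.0402). In pool 3, Gins1 was at 0.68 (SE 0.12, edgeR adjusted p = 5.54e-05), Pold1 at 0.36 (SE 0.07, 0.000145) and Cdc45 at −0.34 (SE 0.07, 0.000536). With scramble replicate 1 the same genes were at 0.27, 0.24 and −0.49 and did not pass (edgeR adjusted p = 0.565, 0.294 and 0.0613). With 2 scramble libraries left, this rests on a thin estimate of the control.

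Of 79 other genes of the pathway, 45 differed among the pools (background 48.6%). In pool 2, 15 were higher and 30 lower than in the other pools (25.3% and 22.3% of all genes). In pool 3, 32 were higher and 13 lower (20.4% and 24.1%). The CDK inhibitor Cdkn1a (p21) was at 293 and 284 CPM in pool 1, 341 and 327 in pool 2, 248 and 246 in pool 3, 274 and 272 in pool 4, and 438, 346 and 317 in scramble. Cdkn2c (p18), an inhibitor of CDK4 and CDK6, was at 21.9 and 20.3 CPM in pool 1, 14.6 and 14.8 in pool 2, 29.6 and 28.0 in pool 3, 23.3 and 20.1 in pool 4, and 19.9, 18.2 and 15.6 in scramble. The pools stood in reverse order for these inhibitors. Cdkn1a was at 0.37 in pool 2 (SE 0.03, edgeR adjusted p = 1.12e-10) and −0.31 in pool 3 (SE 0.03, 6.24e-09), and Cdkn2c at −0.62 (SE 0.06, 5.02e-08) and 0.56 (SE 0.06, 5.76e-08). Among the RB and E2F family, 9 of 12 passed the test among pools (background 48.6%). E2f2, an activator E2F, was at 8.64 and 9.32 CPM in pool 1, 14.4 and 14.5 in pool 2, 9.12 and 9.09 in pool 3, 7.70 and 8.66 in pool 4, and 14.9, 14.4 and 15.2 in scramble. Pool 2 was thus close to scramble and the other pools below all scramble libraries (log2 fold changes against all 3 scramble libraries −0.78, −0.04, −0.77 and −0.90 in pools 1 to 4, SE 0.10 each, edgeR adjusted p = 0.00944, 0.833, 0.00291 and 0.00413). For E2f2 the pool 1 call was lost without either library of that pool (adjusted p = 0.158 and 0.129) and with a replicate block (0.0558), the pool 3 call without pool 3 replicate 1 (0.0542) and the pool 4 call without either library of that pool (0.109 and 0.0576).

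Rb1, the retinoblastoma gene, was at 0.43 in pool 2 against the other pools (SE 0.04, edgeR adjusted p = 2.03e-09), and Cdk6 was at 0.54 (SE 0.04, 4.54e-11). Cks1b, a small CDK subunit, was at 0.53 in pool 2 (SE 0.04, edgeR adjusted p = 1.98e-10) and −0.34 in pool 3 (SE 0.04, 7.46e-07). Samhd1, which degrades deoxynucleotides, was at 83.4 and 86.6 CPM in pool 1, 119 and 112 in pool 2, 69.9 and 66.8 in pool 3, 86.0 and 82.8 in pool 4, and 97.6, 113 and 112 in scramble, and at 0.61 in pool 2 (SE 0.03, edgeR adjusted p = 1.48e-12) and −0.50 in pool 3 (SE 0.04, 3.16e-10). Dck, deoxycytidine kinase of the salvage route, had the reverse signs (−0.37 and 0.36, SE 0.05 each, edgeR adjusted p = 2.91e-06 and 2.12e-06). Of the origin factors, Topbp1, which helps load CDC45, was at −0.30 and 0.26 (SE 0.03 each, edgeR adjusted p = 1.49e-08 and 1.05e-07), and Orc5 at 0.28 and −0.19 (SE 0.06 each, 0.000392 and 0.0126; −0.20 and 0.0767 in pool 3 without its replicate 1, and −0.18 and 0.115 without its replicate 2). Of the fork factors, Rnaseh2a, a subunit of the enzyme that removes ribonucleotides, was at −0.40 and 0.27 (SE 0.04 each, edgeR adjusted p = 2.03e-08 and 3.51e-06) and Timeless, of the fork protection complex, at −0.32 and 0.33 (SE 0.05 each, 3.06e-05 and 1.03e-05).

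Of 18 mitosis genes, counted beside the replication genes for a later phase of the cycle, 16 passed the test among pools (background 48.6%). In pool 2 there were 1 higher and 14 lower (25.3% and 22.3% of all genes). In pool 3 there were 16 higher and 1 lower (20.4% and 24.1%). Cenpf, a kinetochore protein, was at −0.39 in pool 2 and 0.50 in pool 3 (SE 0.03 each, edgeR adjusted p = 1.46e-09 and 2.28e-11), and Cdc20, the activator of the anaphase-promoting complex, at −0.35 and 0.39 (SE 0.03 each, 1.38e-08 and 1.42e-09). The median size of the difference in pool 3 was 0.22 for the mitosis genes and 0.13 for the 43, against 0.14 for all genes. Whether the lists differ was not tested.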

How the data were processed

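The labels' protocols give 1.3 µg of RNA per library and a kit that keeps strand. The submitters' processing notes list these programs: cutadapt 1.9.1 and FastQC 0.11.5, TopHat2, featureCounts 1.5.0-p2, bcl2fastq 2.15.0 and DESeq2, with the build mm10. The sources used here do not give their order and settings. The authors deposited raw counts, whole numbers for each gene symbol and library, and 92 rows of ERCC spike-ins (0.268% to 0.788% of reads) were kept out of them. The authors' deposited table holds, per the file headers, the signal of each gene (its mean normalized count), a log2 fold change and its standard error, a score (the test statistic), and a p-value before and after adjustment.

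The test was that of edgeR 4.0.16 under R 4.3.3 (TMM scaling, filterByExpr, two-sided quasi-likelihood F test, Benjamini-Hochberg adjustment over all genes tested, threshold 0.05). The filter used scramble and the 4 pools as groups, or the 4 pools alone in the fits of the 8 pool libraries. All pools were set against scramble in 2 groups, where 8 libraries count as independent although they are 2 of each pool, so its p-values may be too small. Each pool against scramble used 5 groups. Comparisons between pools used the 8 pool libraries, with 4 residual degrees of freedom, and the test among pools had 3 degrees of freedom. A difference in a pool is against the mean of the other pools unless scramble is named.

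Alternatives were RLE scaling, no scaling factor, no filter, CPM above 1 in every library, DESeq2 1.42.0, a replicate block, other fits and leaving out each library. The fit of 5 groups without scramble replicate 1, and pool 3 against pools 1 and 4, were added after the data were seen. The scripts were tested on simulated data.

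The members and the lists were chosen with earlier results of these data known. Values in every library are given for Akt1, for up to 4 called genes of each role group by smallest p among pools (at least 2 a group) and for the D-type cyclins; other pathway genes are the 2 with the smallest p of each subgroup, and 2 mitosis genes. Same-group libraries differed by more than sampling noise (chi-square per degree of freedom at least 2.69). Since no label states that replicates were separate cultures, the p-values cover the spread of these samples alone, and that spread may be technical. Of the 43 genes, 18 overlap exons of a gene on the other strand and 2 on their own, and the strand setting of the counting was not given in the sources used here.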

Additional observations from a re-analysis of the deposited data

Results flagged for a closer look

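Ccnd1 was the only gene of the 43 that was called in both directions against scramble in single pools. Without scramble replicate 1 it was lower in pool 2 (log2 fold change −0.27, SE 0.05, edgeR adjusted p = 0.00434) and higher in pool 3 (0.14, SE 0.05, edgeR adjusted p = 0.0402), and the test among the 4 pools gave an edgeR adjusted p of 2.16e-06. Both pool 2 libraries (63.3 and 55.7 CPM) were below the scramble libraries (65.3, 71.4 and 70.3) and both pool 3 libraries (84.4 and 81.3) above them. With scramble replicate 1 the values were −0.21 (edgeR adjusted p = 0.611) and 0.20 (0.23), and neither was called.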

How the results depend on the processing

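Counts of called members held best between pools. RLE scaling, no scaling factor, no filter and CPM above 1 in every library kept the 4-pool, pool 2 and pool 3 counts within 1.5 times of 23, 22 and 23, as did DESeq2 (18, 19 and 17). DESeq2 called 36.8% of all genes in the 4-pool test. The 5-group fit on all 11 libraries gave 0, 1 and 0 (2.46%, 5.25% and 1.83% of all genes). It gave 0 for pool 3 against pools 1 and 4, where DESeq2 gave 4 (22.3%). No filter gave 1 in pool 1 and 1 in pool 4 against the other pools. Against scramble, DESeq2 gave 5 for all pools (8.44%) and 1, 6 and 1 in pools 1, 3 and 4 (5.80%, 16.4% and 6.17%). Averaging the 4 pools within the 5-group fit gave 2. The cause was not tested. Replicate numbers did not pair the samples: deviations of 14 distinct same-numbered pairs correlated at −0.12 to 0.14, 1 of them above 0.1 (with 2 libraries a pool, the pairs of replicate 2 between pools repeat those of replicate 1). With the replicate block the counts were 6 for all pools and 3 for pool 3 against scramble, 23, 22 and 22 between pools and 12 for pool 3 against pools 1 and 4.

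Leaving out each library in turn gave 0 to 9 for all pools, highest without scramble replicate 3 (16.5% of all genes). For pools 1 to 4 against scramble it gave 0 to 9, 0 to 2, 0 to 24 and 0 to 10. Each was highest without scramble replicate 1 (28.8%, 4.39%, 48.8% and 31.0% of all genes). Between pools, leaving out a library gave 19 to 23 in the 4-pool test and 0 to 1, 19 to 23, 13 to 23 and 0 to 1 for pools 1 to 4. It gave 3 to 12 for pool 3 against pools 1 and 4. The 13 and the 3 were without pool 3 replicate 1. Beside the 3, 17.2% of all genes were called, against 29.9% with all 8 pool libraries. Shares of all genes are not given for the other ranges between pools, so these cannot be read as particular to the 43 genes. Leaving out scramble libraries does not touch the fits between pools. Without scramble replicate 1, 16 of the 43 values changed sign for all pools against scramble, and 10, 13, 8 and 14 in pools 1 to 4. Without any other single library, the number was at most 8. Of the named genes, those that were called with the new sign, each without scramble replicate 1, ranged over the libraries left out from −0.19 to 0.14 for Mcm7 in pool 1 and −0.19 to 0.14 in pool 4, −0.20 to 0.25 for Gins2 and −0.30 to 0.22 for Rpa2 in pool 3, −0.26 to 0.25, −0.28 to 0.24 and −0.26 to 0.26 for Rb1 in pools 1, 3 and 4, −0.33 to 0.41 and −0.39 to 0.34 for Rnaseh2a in pools 1 and 4, and −0.28 to 0.14 for Cdc20 in pool 1. Each pool has 2 libraries, and the lowest count of a member was 142; other depths were not tried.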
